A study of Mus musculus with 12 samples.

Results

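Fos, Jun, Junb, Egr1, Ier2, Btg2, Dusp1 and Zfp36 are 8 classical immediate early response genes, and their liver transcripts are described here by library. They were chosen by name from a table of 23284 genes, all 8 were listed, and all 8 passed the level filter that left 11546 genes for testing. Total liver RNA was sequenced from mice lacking both Apoa1 and Apoe (Apoa1-/- Apoe-/-, called DKO) and from mice of the same knockout that also expressed the human APOA1 gene (DKO/hA1), so every group shared the loss of both mouse apolipoproteins. Feeding lasted 22 weeks, with chow (4 DKO and 2 DKO/hA1 libraries) or a Western diet rich in fat (3 libraries of each genotype). The promoter of the transgene, the sex and age of the mice and the hour of tissue collection are not given in the sources used here. The labels number the samples of a group without saying how they were taken, so p-values measure the spread between these libraries. The values are FPKM, fragments scaled to transcript length and to the fragments mapped, and the read number behind them is unknown.

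Immediate early genes are transcribed within minutes of a stimulus without new protein synthesis, through factors such as SRF with its ELK partners and CREB that already sit in the cell and are switched on by MAP kinases and other kinases. Their transcripts are short-lived, and in liver they are known to respond to growth factors, feeding and hormones, regeneration and cell stress, handling of the tissue included. Fos, Jun and Junb encode subunits of the transcription factor AP-1, Egr1 a zinc finger transcription factor, and Ier2 a nuclear protein induced with them. Btg2, Dusp1 and Zfp36 act as brakes: Btg2 is antiproliferative and recruits deadenylases to transcripts, Dusp1 removes the activating phosphates from MAP kinases, and Zfp36 (tristetraprolin) directs AU-rich transcripts to decay.

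The promoters of the 4 members on which the account below turns are printed so that the elements read by these signals can be seen. By FPKM, Fos, Dusp1 and Zfp36 were the members that peaked together in the same pair of libraries. Btg2 had DKO chow values below those of all other libraries, a separation not counted over all genes. Both traits were read from the values themselves. Each run is the 250 bases before the RefSeq start, 5′ to 3′ on the strand of the gene, from the RefSeq promoter table of build GRCm38.p6. The gene spans given below are those of GENCODE M21. For Dusp1 and Zfp36 these spans begin further upstream, so both printed runs lie inside them. Capitals mark TGACG, the core of the cyclic AMP response element whose full form is TGACGTCA, the EGR site GCGNGGGCG, the CArG box bound by SRF, and TATAAA.
Fos, chr12:85473640-85473889, plus strand: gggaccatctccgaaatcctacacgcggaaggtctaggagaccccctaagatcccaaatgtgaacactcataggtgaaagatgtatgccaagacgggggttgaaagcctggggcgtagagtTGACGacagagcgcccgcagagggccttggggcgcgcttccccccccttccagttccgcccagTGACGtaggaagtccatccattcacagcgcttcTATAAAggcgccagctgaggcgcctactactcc
Dusp1, chr17:26508473-26508722, minus strand: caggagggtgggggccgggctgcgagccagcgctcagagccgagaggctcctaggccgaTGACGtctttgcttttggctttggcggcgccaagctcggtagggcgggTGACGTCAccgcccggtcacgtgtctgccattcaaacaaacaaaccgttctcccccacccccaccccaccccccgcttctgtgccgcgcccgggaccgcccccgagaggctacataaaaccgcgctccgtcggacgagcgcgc
Zfp36, chr7:28379229-28379478, minus strand: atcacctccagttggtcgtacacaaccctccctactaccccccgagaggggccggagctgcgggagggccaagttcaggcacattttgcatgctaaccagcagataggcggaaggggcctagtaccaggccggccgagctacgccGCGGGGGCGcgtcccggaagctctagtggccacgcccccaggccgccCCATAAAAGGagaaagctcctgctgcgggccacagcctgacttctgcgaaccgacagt
Btg2, chr1:134079156-134079405, minus strand: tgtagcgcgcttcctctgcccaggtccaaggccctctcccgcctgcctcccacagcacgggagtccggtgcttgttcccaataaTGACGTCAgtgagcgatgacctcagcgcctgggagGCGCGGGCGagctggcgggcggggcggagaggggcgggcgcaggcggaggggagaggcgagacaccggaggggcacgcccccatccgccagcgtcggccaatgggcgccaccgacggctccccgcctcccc

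Fos carried TGACG at 129 and 66 bases before the start and TATAAA at 33. Dusp1 held the full element TGACGTCA at 143 bases and another TGACG at 191. Btg2 also held TGACGTCA, at 166 bases, and an EGR site at 131. Zfp36 held an EGR site at 105 bases and, within the bases searched, the only CArG box of these members, at 58. The table held promoters of 6 of the 8 members, these 4 with Jun and Junb, and not those of Egr1 and Ier2. Windows from 250 bases before to 50 bases past the start were searched on both strands, except TATAAA on the strand of the gene only. Sequence further upstream was not searched, so a motif not found here can lie outside the window. Junb had TGACG at 106 bases before its start and TATAAA at the start, and Jun had none of these motifs. Every full TGACGTCA also counts as TGACG, on both strands. Of 32851 promoters of this length, 1.63% held a CArG box, 1.79% TGACGTCA, 20.8% TGACG, 5.55% the EGR site and 8.32% TATAAA. The AP-1 site TGACTCA, in 5.2% of promoters, was in none of the 6. A match describes letters and not a bound site.

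Apoa1 FPKM ran from 30.4 to 77.4 in the 7 libraries without the transgene and from 122 to 239.8 in the 5 with it, and mouse and human transcripts are not told apart. Apoe stood at 12.9 to 89.8 FPKM across the libraries. Hepatocyte markers (9 of 9 tested) summed to 12110 to 22690 FPKM, and each of the 9 was above 0 in every library. Scaling factors lay between 0.933 and 1.04. Macrophage and Kupffer cell markers (15 of 15 tested) summed to 325.8 to 755.6 FPKM on chow and 1024 to 1354 on Western diet in DKO, and to 245 to 613 and 1517 to 2325 in DKO/hA1. Neutrophil markers (8 of 9 tested) summed to 12.7 to 23.9 and 98.0 to 975.8 FPKM in DKO and to 22.9 to 30.1 and 18.1 to 884.6 in DKO/hA1, chow before Western diet. Elane, Ngp, Camp and Retnlg were at 0 in some libraries, and no marker of either list was at 0 in all. In whole tissue, a change in the number of cells of a type and a change of RNA per cell cannot be told apart.

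FPKM is scaled by transcript length, so levels of different members can be set side by side. Zfp36 was the highest member in all 12 libraries, with a mean of 55.8 ± 17.6 FPKM (SD, n = 12), and Fos the lowest in all 12, with 2.84 ± 1.81. Between them came Dusp1 with 30.4 ± 16.3, Junb with 22.9 ± 11.2, Ier2 with 14.8 ± 4.52, Jun with 11.7 ± 7.48, Egr1 with 11.3 ± 9.11 and Btg2 with 9.80 ± 5.64 FPKM. For each of the 7 neighbouring pairs in this order the ranges over the libraries overlapped. The highest library stood 12.7-fold above the lowest for Egr1, 10.4-fold for Fos, 8.04-fold for Jun, 6.32-fold for Btg2 and 5.33-fold for Dusp1. The ratio was 3.38 for Junb, 2.61 for Zfp36 and 2.54 for Ier2.

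**Figure D1:**
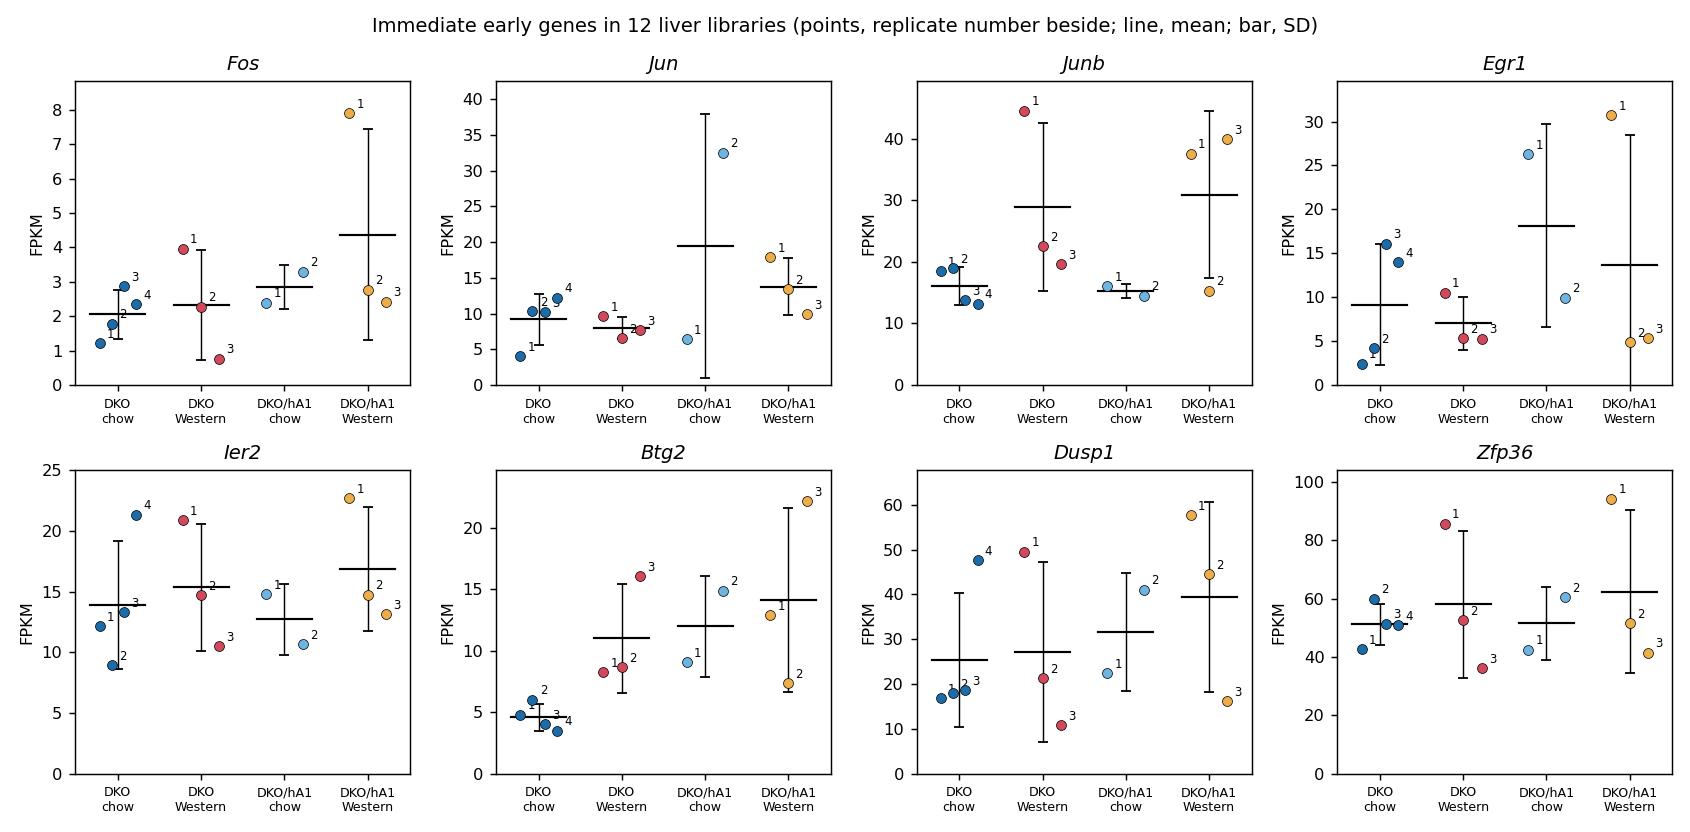
FPKM of the 8 immediate early genes in 12 liver libraries, 1 panel per gene with its own linear axis from 0. Points are libraries with the replicate number beside them, horizontal lines are group means and bars are SDs (n = 4, 3, 2 and 3), cut where they would pass below 0. In Btg2 the 4 DKO chow libraries (3.51 to 6.002 FPKM) lie below all other libraries (7.36 to 22.2 FPKM), a separation not counted over all genes.

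Fos (chromosome 12, 85473890 to 85477273, build mm10) stood at 1.22, 1.78, 2.87 and 2.36 FPKM in DKO chow replicates 1 to 4 and at 2.39 and 3.29 in DKO/hA1 chow. On Western diet it stood at 3.97, 2.28 and 0.760 in DKO and at 7.90, 2.77 and 2.43 in DKO/hA1 replicates 1 to 3. The highest value was replicate 1 in both Western diet groups, the lowest was DKO Western diet replicate 3, and the ranges of chow and Western diet overlapped in each genotype.

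Jun (chromosome 4, 95049034 to 95052222) stood at 4.05, 10.3, 10.2 and 12.2 FPKM in DKO chow and at 6.41 and 32.5 in DKO/hA1 chow. The Western diet values were 9.66, 6.59 and 7.67 in DKO and 17.9, 13.4 and 9.94 in DKO/hA1. The 2 DKO/hA1 chow libraries stood 5.08-fold apart and held the highest value of all. Jun was higher in each of the 3 DKO/hA1 than in each of the 3 DKO Western diet libraries, by a small gap of 9.94 against 9.66 FPKM. Heat shock genes (10 of 10 tested) had mean scaled log2 levels from 4.35 to 5.77. The highest mean, 5.77, was in DKO Western diet replicate 3, where Jun was 7.67 FPKM. The second highest, 5.44, was in DKO/hA1 chow replicate 2, the library highest in Jun. The part of the heat shock genes in the Jun values was not tested.

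Junb (chromosome 8, 84974484 to 84978718), an AP-1 subunit that can oppose Jun, stood at 18.5, 18.97, 13.8 and 13.2 FPKM in DKO chow and at 16.1 and 14.5 in DKO/hA1 chow. On Western diet it stood at 44.5, 22.6 and 19.6 in DKO and at 37.5, 15.3 and 39.9 in DKO/hA1. Every chow library was at or below 18.97 FPKM, and 5 of the 6 Western diet libraries were above it, DKO/hA1 Western diet replicate 2 being the exception.

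Egr1 (chromosome 18, 34859823 to 34864984) stood at 2.42, 4.16, 16.1 and 14.0 FPKM in DKO chow and at 26.3 and 9.96 in DKO/hA1 chow. Under Western diet the levels were 10.5, 5.30 and 5.29 in DKO and 30.8, 4.90 and 5.35 in DKO/hA1. The DKO chow libraries fell into 2 low and 2 high values. A clock index, the mean scaled log2 level of 4 genes of the Arntl arm minus that of 8 genes of the Dbp arm, was -2.85 and -2.75 in the 2 low libraries and 0.93 and 0.52 in the 2 high ones. For DKO/hA1 the index was 0.27 and 0.67 on chow and -2.19, -2.71 and -0.77 on Western diet, where DKO had -1.28, -1.67 and -0.76. DKO/hA1 Western diet replicate 1 paired the highest Egr1 with an index of -2.19, and the part of the clock in these values was not tested.

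Ier2 (chromosome 8, 84661331 to 84662852) stood at 12.2, 8.95, 13.3 and 21.4 FPKM in DKO chow and at 14.8 and 10.7 in DKO/hA1 chow. On Western diet it stood at 20.9, 14.7 and 10.5 in DKO and at 22.7, 14.8 and 13.2 in DKO/hA1. It varied the least of the members, and all 4 groups overlapped.

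Btg2 (chromosome 1, 134075170 to 134079120) stood at 4.795, 6.002, 4.003 and 3.51 FPKM in DKO chow and at 9.06 and 14.9 in DKO/hA1 chow. Western diet libraries held 8.26, 8.66 and 16.1 in DKO and 12.9, 7.36 and 22.2 in DKO/hA1. DKO chow lay below every library of the other 3 groups, which overlapped among themselves. The share of all genes tested with this separation was not counted. For single pairs of groups, 10.5% of all genes were higher without overlap in DKO Western diet than in DKO chow. In DKO/hA1 chow against DKO chow the share was 12.3%. The highest Btg2 values on Western diet were in replicate 3 of both genotypes. The mean scaled log2 level of 16 acute phase genes was 11.23 and 11.70 there, 11.89 in DKO Western diet replicate 2, where Btg2 was 8.66 FPKM, and 9.04 in DKO/hA1 chow replicate 2, where Btg2 was 14.9. The part of the acute phase in the Btg2 values was not tested.

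Dusp1 (chromosome 17, 26505590 to 26562128) stood at 16.8, 18.0, 18.6 and 47.7 FPKM in DKO chow and at 22.4 and 41.0 in DKO/hA1 chow. On Western diet it stood at 49.6, 21.3 and 10.8 in DKO and at 57.7, 44.6 and 16.2 in DKO/hA1. Each group held low and high libraries, and all 4 groups overlapped.

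Zfp36 (chromosome 7, 28376784 to 28380253) stood at 42.7, 59.9, 51.4 and 50.9 FPKM in DKO chow and at 42.6 and 60.4 in DKO/hA1 chow. The Western diet libraries held 85.6, 52.5 and 36.1 in DKO and 94.3, 51.5 and 41.5 in DKO/hA1. Replicate 1 of each Western diet group stood apart above the rest, and the other 10 libraries lay between 36.1 and 60.4 FPKM. By the GENCODE M21 annotation, Junb overlaps Prdx2 and Dusp1 overlaps Ergic1, each on the other strand, while Jun and Zfp36 overlap the antisense genes Junos and Gm44710. Whether counting used strand, and which gene spans it used, is not given in the sources used here. Reads of such partners therefore cannot be told apart in these 4 members.

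**Figure D2:**
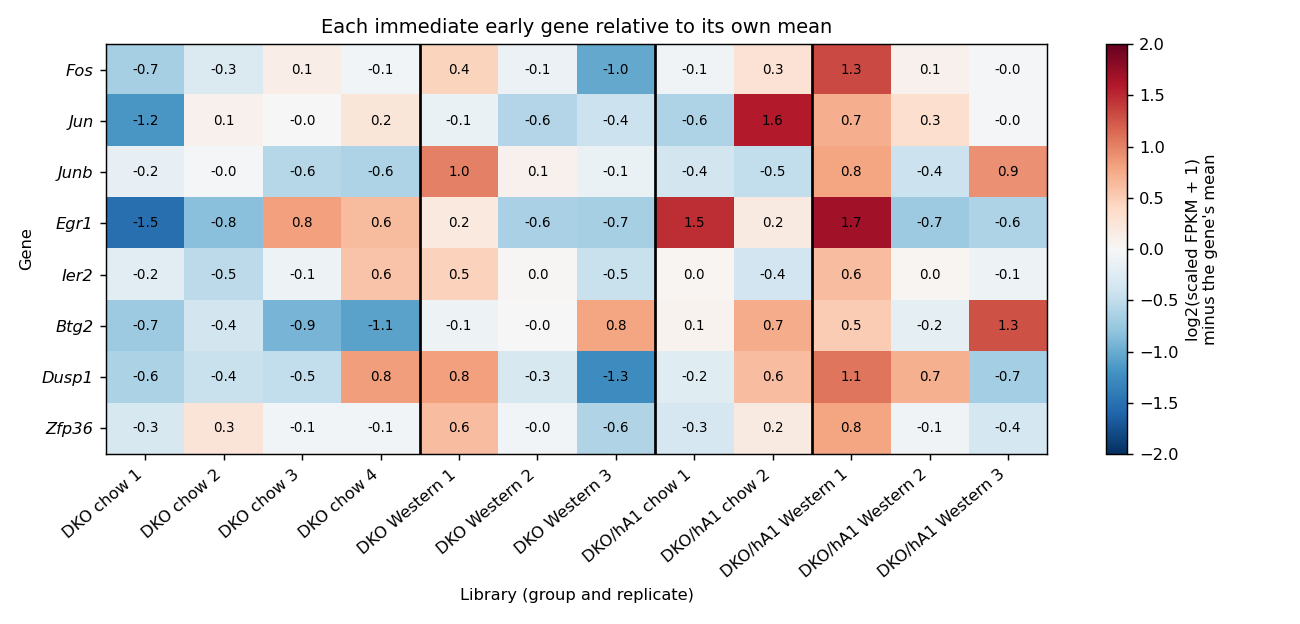
Each member's log2(scaled FPKM + 1) minus that gene's mean over the 12 libraries, with genes as rows and libraries as columns, and black lines between the 4 groups. Red is above and blue below the gene's own mean. The column of DKO/hA1 Western diet replicate 1 is above the mean for all 8 genes, with an average difference of 0.94.

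The diet effect without human APOA1 compares DKO Western diet with DKO chow livers. Btg2 had the highest fold change of the members, from 4.58 ± 1.09 FPKM (SD, n = 4) on chow to 10.99 ± 4.40 (n = 3) on Western diet, and Junb went from 16.1 ± 3.05 to 28.9 ± 13.6. The other 6 members had log2 fold changes between -0.17 (Jun) and 0.08 (Ier2). None of the 8 members passed the threshold, where 0.113% of all genes tested did. The log2 fold change was 1.00 ± 0.34 (SE) for Btg2, with a limma p of 0.0141 before and 0.303 after Benjamini-Hochberg adjustment over all genes. For Junb it was 0.66 ± 0.34 (limma adjusted p = 0.481). Before adjustment 1 of 8 members was below 0.05, against 11.8% of all genes. In Btg2 and Junb every Western diet library exceeded every chow library in FPKM, as did 10.5% of all genes tested, and after scaling the Junb values of the groups overlapped.

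Under human APOA1, Western diet livers had 30.9 ± 13.6 FPKM of Junb (n = 3) against 15.3 ± 1.09 on chow (n = 2). This was the highest fold change of the members, 0.85 ± 0.41 on the log2 scale (limma adjusted p = 0.401). Btg2 was at 14.1 ± 7.48 against 11.97 ± 4.12 FPKM, a log2 fold change of 0.13 ± 0.41 (limma adjusted p = 0.937). The lowest fold change was that of Egr1, -0.72, which was 0.20 with the clock index as a covariate, and that of Jun turned positive with it as well (0.21). Jun kept its negative sign in 19 of 23 alternatives, with a range from -1.24 to 0.95. The value of 0.95 was the fit without DKO/hA1 chow replicate 2, the library highest in Jun. In DKO/hA1 the index was 0.27 and 0.67 on chow and -2.71 to -0.77 on Western diet. Diet and index therefore cannot be told apart within these groups. Again 0 of 8 members passed the threshold, where 1.32% of all genes did, and 0 were below 0.05 before adjustment, against 13.5% of all genes. Groups of no member were free of overlap, while those of 30.3% of all genes were. The diet effect on Btg2 differed between the genotypes by -0.88 ± 0.53 (limma adjusted p = 0.960, 95% interval -2.06 to 0.30). In this interaction, 0 of 8 members and 0.0173% of all genes passed, and 0 members and 4.88% of all genes were below 0.05 before adjustment.

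**Figure D3:**
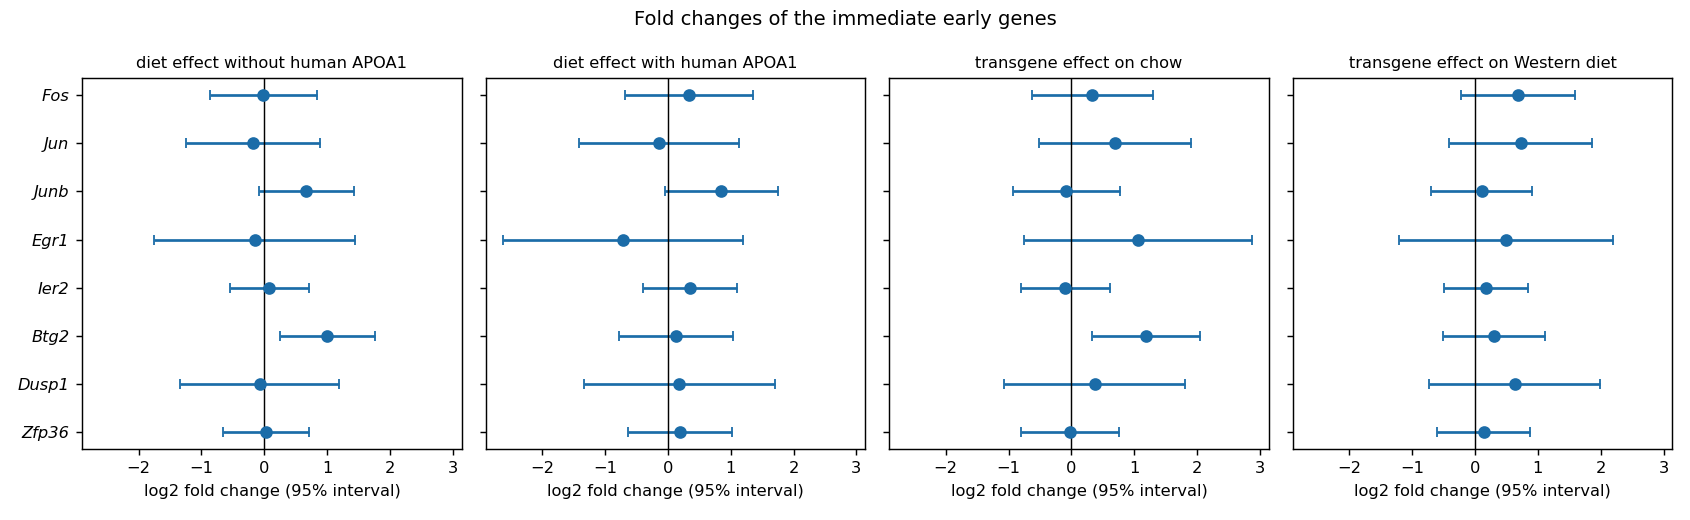
Log2 fold changes of the 8 members in the 4 pairwise comparisons, on log2(scaled FPKM + 1), with 95% intervals from limma and a vertical line at 0. Intervals of Btg2 without human APOA1 (0.25 to 1.76) and on chow (0.32 to 2.04) lie above 0 before adjustment, and none passed after adjustment over all genes.

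The transgene effect on chow compares DKO/hA1 with DKO livers under the same feed. Btg2 again led the members, with 11.97 ± 4.12 FPKM (n = 2) against 4.58 ± 1.09 (n = 4), and the log2 fold changes of all members ran from -0.10 (Ier2) to 1.18 (Btg2). For Btg2 the SE was 0.39 and the limma p 0.0116 before and 0.463 after adjustment. The DKO chow libraries enter this comparison and the diet effect without human APOA1 alike, so the 2 Btg2 differences rest on the same 4 low values. No member passed, against 0.0779% of all genes, and 1 of 8 was below 0.05 before adjustment, against 7.43% of all genes. Only Btg2 of the members showed no overlap, higher with the transgene, as did 12.3% of all genes.

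The transgene effect on Western diet had a positive fold change for all 8 members, from 0.10 (Junb) to 0.73 (Jun), with a median of 0.40 against -0.01 for all genes. No member passed, and 0% of all genes did in limma. Before adjustment 0 of 8 members were below 0.05, against 5.85% of all genes (675 genes). Jun, at 13.8 ± 4.00 against 7.97 ± 1.56 FPKM (n = 3 each), was the only member without overlap, found higher in 4.38% of all genes. Its log2 fold change was 0.73 ± 0.51 (limma adjusted p = 0.962). Without DKO/hA1 Western diet replicate 1, 4 of the 8 fold changes were positive.

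Averaged over genotypes, Western diet gave Junb a log2 fold change of 0.76 ± 0.27, or 1.69-fold, with a limma p of 0.0164 before and 0.146 after adjustment. Btg2 followed with 0.56 ± 0.27 (limma adjusted p = 0.276), then Ier2 with 0.21 ± 0.22, Fos with 0.16 ± 0.30, Zfp36 with 0.11 ± 0.24 and Dusp1 with 0.05 ± 0.45. Jun (-0.16 ± 0.37) and Egr1 (-0.43 ± 0.56) had negative values. None of the 8 passed, where 3.95% of all genes did, and 1 of 8 was below 0.05 before adjustment against 19.6% of all genes. Without DKO/hA1 Western diet replicate 2, Junb passed (0.97 ± 0.20, limma adjusted p = 0.0373), and it passed in none of the other 21 alternatives. Macrophage markers moved in the same direction as Junb. Of 15, 9 rose with the diet averaged over genotypes, 14 fold changes were positive, and the median of the list was 1.35. Their part in the Junb values was not tested. The marker mean was 5.48 in DKO/hA1 Western diet replicate 2, where Junb was 15.3 FPKM, and 5.50 in replicate 1, where it was 37.5.

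Averaged over diets, all 8 members had a positive log2 fold change with the transgene, with a median of 0.51 against 0.00 for all genes. Egr1 had 0.77 ± 0.56, Btg2 0.74 ± 0.27, Jun 0.71 ± 0.37, Fos 0.51 ± 0.30 and Dusp1 0.50 ± 0.45. Zfp36 (0.05 ± 0.24), Ier2 (0.04 ± 0.22) and Junb (0.01 ± 0.27) were near 0, and their sign turned in some alternatives. None passed, with 0.113% of all genes called, and Btg2 came closest, with a limma p of 0.0185 before and 0.492 after adjustment. Before adjustment 1 of 8 was below 0.05, against 8.03% of all genes. Over 22 alternatives, 5 to 8 of the 8 fold changes were positive, 5 without DKO Western diet replicate 3 or without DKO/hA1 Western diet replicate 1. The 2 averaged comparisons use the same libraries as those above.

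The members varied widely between libraries of the same group. The residual SD after removing group means was 1.05 (log2) for Egr1, 0.84 for Dusp1, 0.71 for Jun, 0.57 for Fos, 0.51 for Btg2, 0.51 for Junb, 0.47 for Zfp36 and 0.42 for Ier2. The median of the members was 0.54, against 0.20 for all genes tested and 0.19 for the 7336 genes whose mean FPKM lay between those of Fos and Zfp36. Egr1 stood at percentile 99.1 of all genes, Dusp1 at 98.2, Jun at 97.2 and Fos at 95.2. Btg2, Junb, Zfp36 and Ier2 stood at 93.4, 93.3, 91.7 and 89.6. These percentiles describe the libraries and carry no test. Without both replicate 1 libraries on Western diet, the percentile was 75.8 for Zfp36 and 86.4 for Fos.

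**Figure D4:**
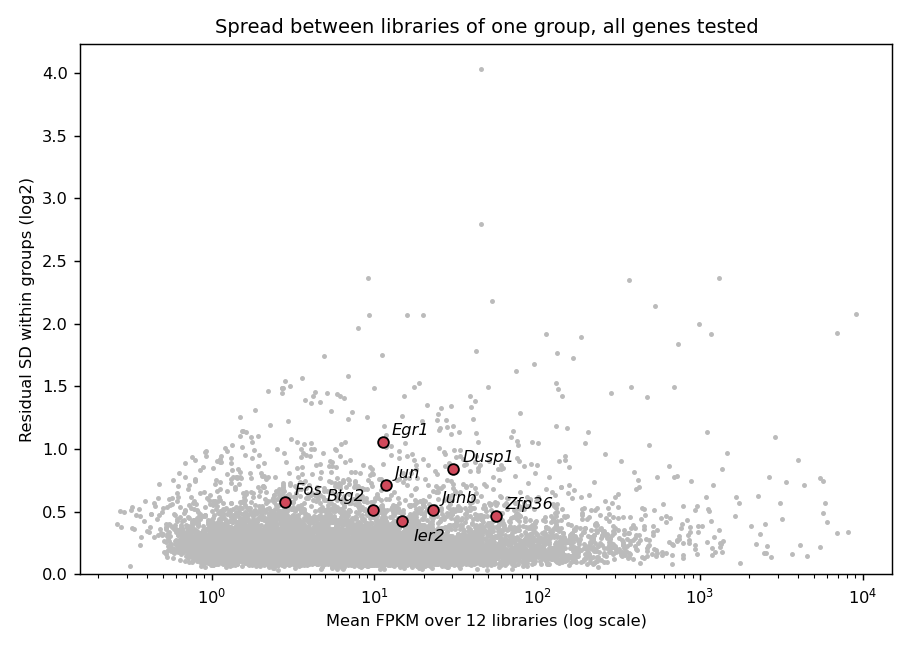
Residual SD within groups (log2, 8 residual degrees of freedom) against mean FPKM over the 12 libraries on a log axis, for 11546 genes in grey and the 8 members in red. Members lie between 0.42 and 1.05, above the median of all genes at 0.20.

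The high values gathered in particular libraries. DKO/hA1 Western diet replicate 1 was the highest library for 5 of the 8 members and among the top 3 for 7, and it was the highest for 6.33% of all genes tested. DKO Western diet replicate 1 was among the 2 highest for 4 members, and for 16.1% of all genes. In FPKM, Fos, Dusp1 and Zfp36, whose promoters are printed above, had exactly these libraries as their 2 highest. So had 2.51% of all genes tested (290 genes). These libraries were picked from the members' own values, so the shares beside them are a description and carry no test. After scaling, DKO chow replicate 4 came second for Dusp1, at 5.626 on the log2 scale against 5.607 in DKO Western diet replicate 1. The members' mean scaled log2 level was 4.79 (DKO/hA1) and 4.27 (DKO) in the 2 Western diet replicate 1 libraries and 3.18 to 4.19 elsewhere. In the labels of both libraries the diet letters are followed by the code number 41, which no other library shares. The labels do not say what this code number means. The number 57 is shared by 3 libraries, DKO chow replicate 3 and both DKO/hA1 chow libraries, whose member means were 3.70, 3.85 and 4.19. The code number follows diet, at 41 to 49 in Western diet and 54 to 59 in chow libraries. Diet and whatever this number marks therefore cannot be told apart in the diet comparisons, those of Junb, Btg2 and Trib1 included. The shared 41 was noticed after the values were seen, and the part of whatever the code marks in these values was not tested. At the low end, DKO chow replicate 1 was among the 3 lowest for 5 members, and DKO Western diet replicate 3 was the lowest for 3. Shares of all genes tested were not counted for the top 3, the 3 lowest or the lowest position.

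Within groups, Fos went with most of the other members and Btg2 did not. With group means removed from the scaled log2 values (n = 12), the correlation of each member with the mean of the other 7 was 0.91 for Fos, 0.84 for Zfp36, 0.65 for Dusp1, 0.64 for Ier2, 0.55 for Egr1, 0.46 for Jun, 0.30 for Junb and -0.34 for Btg2. Of the 28 pairs, 22 had a positive Pearson r, with a median of 0.43 and a range from -0.61 (Ier2 with Btg2) to 0.91 (Fos with Zfp36). For Fos and Zfp36 r was 0.91 (exact permutation within groups, p = 0.00694, adjusted p = 0.0999 over 28 pairs). Spearman's rho was 0.90 for this pair (exact permutation p = 0.00637, adjusted p = 0.0857). Without the 2 libraries farthest from the median of Fos, r was 0.83. Dusp1 with Zfp36 had r = 0.77 and rho = 0.84 (exact permutation p = 0.0330 and 0.00984, adjusted 0.108 and 0.0857), and r was 0.82 without the 2 farthest libraries. For 10 of the 28 pairs p was below 0.05 before adjustment, and no pair passed after it, by r or by rho. The members share their libraries and scaling, so the pairs are not independent.

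The genes most like the members were found by Pearson r between their group-centred values and the mean of the 8 members, over 12 libraries. They were Ftcd (0.94), Anp32a (0.94), Col5a3 (0.94), Tex2 (0.93), Sdr9c7 (0.92), Cited2 (0.92), Bcar3 (0.92), Suox (0.92), Fkbp3 (0.92) and Amdhd1 (0.92). These are the 10 highest of all genes tested other than the members, and the values are a description of these libraries. Ftcd, a histidine and folate enzyme of hepatocytes, stood at 155 FPKM in DKO/hA1 Western diet replicate 1 and at 109 and 96.7 in replicates 2 and 3. It was higher in DKO chow replicates 3 and 4 (171.7 and 163.1 FPKM) and in DKO/hA1 chow (161.8 and 167.5 FPKM). The likeness therefore holds for values with group means removed, and Ftcd did not peak in the library where most members did.

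Further genes of the response were read from lists. Of 20 other immediate early transcription factors, 12 were tested and 0 passed in any of the 7 comparisons. The highest by mean level were Bhlhe40 (50.4 FPKM), a repressor tied to the clock, and Jund (12.2 FPKM), an AP-1 subunit. The lowest were Npas4 (0.00766 FPKM) and Egr4, which was listed at 0. Of 30 other immediate early effectors, 25 were tested and 1 passed, Trib1. Errfi1, an inhibitor of the EGF receptor (334.5 FPKM), and Zfp36l1, a relative of Zfp36 (49.7 FPKM), were the highest, and Arc (0.0692 FPKM) and Btg3 (8.88e-05 FPKM) the lowest. Of 26 upstream kinases and promoter factors in the table, all 26 were tested and 0 passed. Egfr (133 FPKM) and Map2k2 (31.4 FPKM) were the highest of them, Elk1 (2.05 FPKM) and Braf (2.25 FPKM) the lowest. None of the 10 heat shock genes passed. The medians of these 4 lists for diet averaged over genotypes were 0.19, 0.14, -0.07 and 0.14, against -0.01 for all genes.

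Trib1 (chromosome 15, 59648350 to 59657099), a pseudokinase that directs C/EBP alpha to degradation, stood at 12.6, 10.9, 8.70 and 9.97 FPKM in DKO chow and at 8.33 and 5.90 in DKO/hA1 chow. Its Western diet values were 19.6, 15.4 and 14.2 in DKO and 17.0, 14.5 and 14.6 in DKO/hA1. Every Western diet library exceeded every chow library, a separation not counted over all genes tested. Trib1 rose with the diet under human APOA1 by 1.01 ± 0.18 (limma adjusted p = 0.0286) and averaged over genotypes by 0.77 ± 0.12 (limma adjusted p = 0.0077). It was the sole called gene of the 12, 25 and 26 tested genes of these lists, where 1.32% and 3.95% of all genes passed. Without DKO/hA1 chow replicate 2 neither call held, at 0.80 (limma adjusted p = 0.436) and 0.66 (limma adjusted p = 0.0596), and the first call ended in 8 of 23 alternatives. Its diet effect without human APOA1 was 0.52 ± 0.15 (limma adjusted p = 0.244), and the difference between genotypes was 0.49 ± 0.24 (limma adjusted p = 0.960).

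Atf3, Nr4a1 and Socs3 were picked after their values were seen. Atf3, a stress-induced transcription factor of the ATF/CREB family, stood at 0.449, 0.238, 0.870 and 1.08 FPKM in DKO chow and at 3.25, 1.00 and 1.77 in DKO Western diet. With the transgene it stood at 3.68 and 5.67 on chow and at 3.37, 7.53 and 10.2 on Western diet. All 5 transgene libraries were above all 7 others, 3.37 against 3.25 FPKM at the nearest, a separation not counted over all genes. Averaged over diets the log2 fold change was 1.59 ± 0.26, with a limma p of 8.69e-05 before and 0.0717 after adjustment. It passed in 4 of 22 alternatives, whose limma adjusted p ran from 0.00907 to 0.426. Nr4a1, an orphan nuclear receptor, stood at 1.89 ± 0.765 FPKM on chow and 1.65 ± 1.104 on Western diet without the transgene, and at 4.56 ± 0.633 and 5.81 ± 4.30 with it. Its transgene effect averaged over diets was 1.103 ± 0.32 (limma adjusted p = 0.390). Socs3, an inhibitor of cytokine signalling, stood at 4.35 ± 3.31 and 16.2 ± 0.817 FPKM without and at 3.59 ± 0.912 and 13.04 ± 14.2 with the transgene, chow before Western diet, with a diet effect averaged over genotypes of 1.47 ± 0.46 (limma adjusted p = 0.106). Its highest value, 29.4 FPKM, was in DKO/hA1 Western diet replicate 3, against 4.31 in replicate 1.

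**Figure D5:**
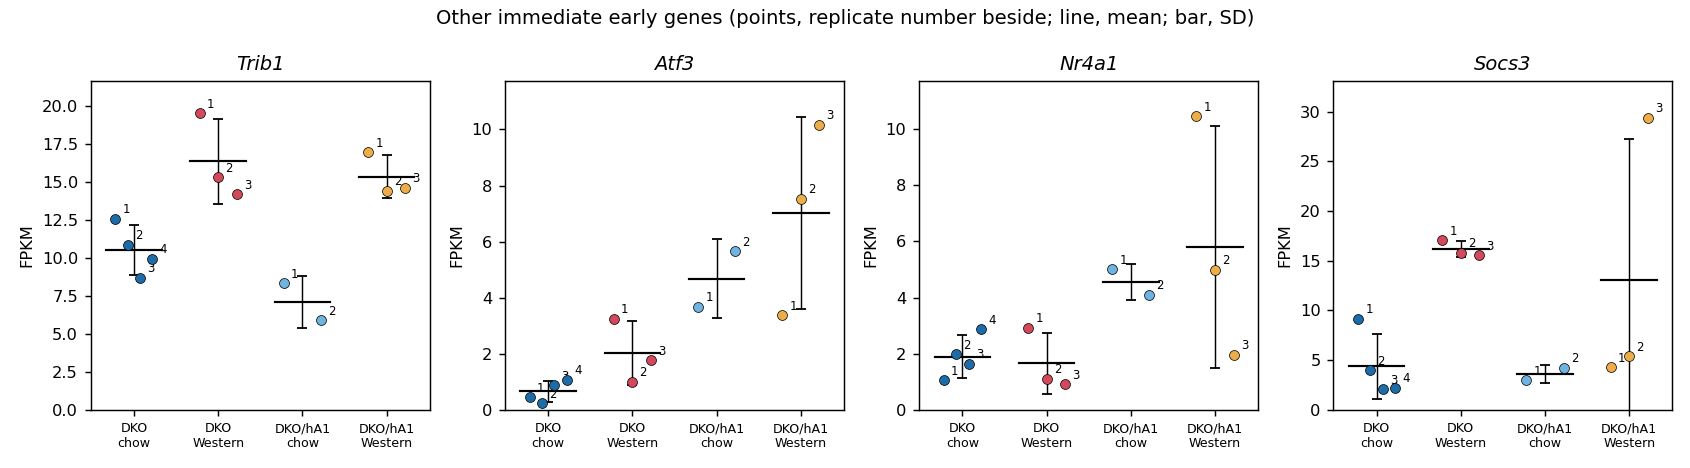
FPKM of Trib1, Atf3, Nr4a1 and Socs3 by group on linear axes from 0, with libraries as numbered points, lines at the means and SD bars cut at 0. Western diet libraries of Trib1 (14.2 to 19.6 FPKM) lie above its chow libraries (5.90 to 12.6 FPKM), a separation not counted over all genes.

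Calls in the cell type and acute phase lists give the setting in which the members were read. Under human APOA1, diet raised Saa3 of the acute phase list and Vsig4, Cd5l, C1qa, C1qb, Lyz2, Mpeg1 and Fcgr1 of the macrophage list. Averaged over genotypes, these 8 were called higher again, with Saa1, Saa2, Orm2, Lcn2, Csf3r, Cd68 and C1qc, and Hamp, the iron hormone hepcidin, was called lower. The acute phase and macrophage lists held 16 and 15 tested genes. Of all genes tested, 1.32% passed under human APOA1 and 3.95% averaged over genotypes. Without human APOA1, diet gave no call in these lists, where 0.113% of all genes passed. Before adjustment, 15 of 16 acute phase and 8 of 8 neutrophil genes were below 0.05 there, against 4 and 1 under human APOA1. For the macrophage list the counts were 9 of 15 without and 14 of 15 under human APOA1. Of all genes, 11.8% without and 13.5% under human APOA1 were below 0.05. No gene of these lists was called for the transgene.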

How the data were processed

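Liver RNA of 12 libraries was sequenced. Per the submitters' processing notes, the authors used TopHat 1.3.2, Bowtie 0.12.8, SAMtools 0.1.19 and Cuffdiff with build mm10. The gene annotation is not given in the sources used here. The deposited table is named as counts and holds FPKM, since its values have decimals and sum to 379689 to 578927 per library; depth is therefore unknown and no count test was used. The labels state that RNA of low integrity was not sequenced. All 12 columns were mapped by their labels.

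Libraries were scaled with a trimmed mean of log ratios without weights (trims 0.3 and 0.05), 1 was added before the log2, and limma 3.58.1 in R 4.3.3 was fitted to 4 group means over all 12 libraries, with a trended, robust variance. Adding 1 understates fold changes where FPKM are low. Genes of at least 1 FPKM in at least 2 libraries were tested (11546). Small RNA genes (783) and 22 genes listed at 0 throughout a group while another group was at 1 or more in every library were left out, and 10933 were below the level. The threshold was an adjusted p (Benjamini-Hochberg, all tested genes, two-sided) under 0.05, in 7 comparisons. The fit was tested on simulated data. Pairs were tested by exact permutation of libraries within groups (1728 arrangements) in Python 3.11.15 with scipy 1.17.1.

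The members, lists and tests were chosen with earlier results of these data known. Named were the 8 members, every called gene of the lists, the 2 highest and 2 lowest of each pathway list by mean FPKM, and the 10 genes most like the members. Alternatives changed the pseudocount, scaling, level filter, libraries fitted, variance model, replicate number, a clock covariate, or left out libraries. Positions are from GENCODE M21 (mm10).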

Additional observations from a re-analysis of the deposited data

Results flagged for a closer look

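Dusp1 in DKO chow replicate 4 stood at 47.7 FPKM, far from the other 3 libraries of its group at 16.8 to 18.6 FPKM. The gap to the nearest of them took up 0.944 of the range of the group, above the limit of 0.829 for 4 samples. It was the only result of 8 tested in this way, each a member in DKO chow, to stand out, and chance marks about 1 in 20 such groups. Groups of 2 or 3 libraries were not tested. Without this library the averaged diet effect on Dusp1 was 0.22 on the log2 scale, against 0.05 with it.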

How the results depend on the processing

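No member was called in 6 of the 7 comparisons under any alternative run, and for diet averaged over genotypes the count was 0 to 1 over the fits that left out 1 library each, the 1 being Junb. The labels do not say whether libraries of the same replicate number share anything else. The 15 same-numbered pairs correlated from -0.28 to 0.45, and 4 of them above 0.1. One of these, the pair of Western diet replicate 1 libraries that also shares the code number 41, was at 0.44. Pairs with different numbers ran from -0.52 to 0.55. With the replicate block, 0 members were called, 298 genes passed for diet averaged over genotypes against 456, and 8 of the 56 member fold changes turned sign. These were Btg2 in diet with human APOA1 (-0.050), Junb (-0.055) and Zfp36 (-0.039) in the averaged transgene effect, Dusp1 (0.26), Egr1 (0.14) and Fos (0.038) in diet without human APOA1, Ier2 in transgene on chow (0.018) and Jun in the interaction (-0.11). Over all alternatives, 36 of the 56 turned in at least 1, most often without DKO/hA1 Western diet replicate 1 (17). Btg2 and Junb kept their sign throughout for diet without human APOA1 and for diet averaged over genotypes. The turned values of the fold changes given singly above follow, and the cause was not tested. Without the 2 libraries highest in neutrophil markers (on Western diet, replicate 2 of DKO and replicate 3 of DKO/hA1), Btg2 was at -0.25 in diet with human APOA1 and Junb at -0.16 in the averaged transgene effect. With a clock covariate, 7 signs turned: averaged diet effects were 0.034 for Jun and 0.065 for Egr1, those with human APOA1 were 0.21 and 0.20, the Egr1 interaction was 0.28, Zfp36 in transgene on chow was 0.054, and the averaged transgene effect was -0.0021 for Ier2. Equal totals, which shift the median of all genes to -0.14, gave averaged diet effects of -0.093 for Dusp1 and -0.039 for Zfp36. Without both replicate 1 Western diet libraries, an alternative chosen after seeing the data, they were -0.22 for Fos, -0.0041 for Ier2, -0.39 for Dusp1 and -0.21 for Zfp36. Leaving out 1 library at a time, Btg2 in diet with human APOA1 ran from -0.25 to 0.49. Averaged diet effects ran from -0.051 to 0.36 for Fos, -0.71 to 0.39 for Jun, -0.22 to 0.32 for Dusp1 and -0.051 to 0.26 for Zfp36. Averaged transgene effects ran from -0.11 to 0.23 for Junb, -0.081 to 0.15 for Ier2 and -0.11 to 0.21 for Zfp36. The number of all genes called moved with the setting, from 34 to 639 for diet averaged over genotypes, lowest without DKO/hA1 chow replicate 2, from 6 to 190 for diet with human APOA1, and from 8 to 72 for diet without it. With 2 to 4 libraries a group and the spread given above, the fold changes of most members had intervals on both sides of 0.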
